A study of Rattus norvegicus with 15 samples.

Results

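The genes described here encode the subunits of respiratory complexes II to V and cytochrome c, together with a few proteins that assemble or regulate these complexes. A gene was taken when its single symbol in the array's annotation starts with Sdh followed by a, b, c or d, with Uqcr, with Atp5, or with Cox and a number between 4 and 8, or equals *Cyc1* or *Cycs*. Each gene was read from its probe set with the highest mean over the 15 arrays. The rule found 47 of the 14506 genes measured under a name, on 56 probe sets. They comprise 4 genes of complex II, 7 of complex III, 1 for cytochrome c, 14 of complex IV, 15 of complex V, 5 assembly or regulatory factors and 1 pseudogene of a complex IV subunit (*Cox6c-ps1*). *Cyc1*, *Uqcr10*, *Cox6b1*, *Cox7a1* and *Cox7b2* were not analysed here. No filter on low values was applied, so all 47 genes entered every test.

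Complex II (succinate dehydrogenase) takes electrons from succinate and complex III (the cytochrome bc1 complex) hands them to cytochrome c, from which complex IV (cytochrome c oxidase) passes them to oxygen. Complexes III and IV pump protons across the inner mitochondrial membrane, and complex V (ATP synthase) lets them flow back to make ATP. Neurons depend on this pathway for nearly all of their ATP, and the inferior colliculus (IC), a midbrain auditory nucleus, is among the brain regions with a high energy use. Most subunits are encoded by nuclear genes, and these are the ones that the rule takes in.

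RNA of the IC was hybridized to Affymetrix rat gene arrays, and the values are log2 intensities made by robust multi-array averaging (RMA). The Wistar audiogenic rat (WAR) is a strain selected for seizures triggered by loud sound, and the strain came from the School of Medicine of Ribeirão Preto. The Wistar albino rats came from Charles River Laboratories, so strain and breeder cannot be told apart. All rats were male and 12 weeks old. WAR S (5 arrays) and Wistar S (2 arrays) were exposed to auditory stimulation and their IC was harvested 60 min later, whereas WAR N (4 arrays) and Wistar N (4 arrays) were naïve. The paper states that the stimulated WAR rats of its own PCR and staining experiments had seizures and the stimulated Wistar rats had none. It takes the array data from an earlier study, and counts more stimulated rats of each strain for them than the 5 and 2 arrays here. In the stimulated part, strain and any seizure therefore cannot be told apart. The protocol text shared by all samples speaks of stimulated animals only, and the exposure given for each sample was followed. The labels call the arrays biological replicates, but no source states that each array held RNA of a single rat, so p-values measure the spread between these samples. In whole tissue, fewer cells of a type and less RNA per cell cannot be told apart.

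Stimulated arrays shared 2675 to 3286 identical probe set values in each pair, naïve arrays 2 to 13, and a stimulated and a naïve array 0, so the parts were taken as normalized apart and WAR was compared with Wistar within each part only. Among the naïve arrays, Wistar N replicates 2, 3 and 4 stood apart from the rest. On the first principal component of all genes, which held 62.8% of the variance, they lay between −36.9 and −32.0, and Wistar N replicate 1 lay at 23.2 with the WAR N arrays, which lay between 12.7 and 22.7. Wistar N replicate 1 had correlations of 0.981 to 0.988 with the WAR N arrays and of 0.956 to 0.964 with the other Wistar N arrays. Next, 36 genes were taken that separated the strains among stimulated arrays by a gap of at least 0.7 on the log2 scale. Wistar N replicate 1 nevertheless lay on the Wistar side of the WAR N mean for 29, and replicates 2, 3 and 4 for 32, 33 and 32. The median difference in that direction was smaller for replicate 1, at 0.57, than for replicates 2, 3 and 4, at 1.08, 1.01 and 0.99. Results of the naïve part are therefore given with and without replicates 2, 3 and 4. Of 7 markers of the IC and midbrain, the list mean per array ranged from 9.73 to 9.90 for WAR S and from 9.73 to 9.75 for Wistar S, and from 9.68 to 9.73 for WAR N and from 9.94 to 10.06 for Wistar N. The 7 markers averaged between 6.57 (*Slc6a5*) and 11.21 (*Slc17a6*), and *Tfap2d*, a transcription factor gene of the dorsal midbrain, averaged 11.03. After sound 0 of the 7 were called (limma, adjusted p at most 0.05), with a median log2 fold change of −0.0056. In WAR N, 1 was called higher and 4 lower, against 11.6% and 9.38% of all genes, with a median of −0.43. Against Wistar N replicate 1 alone the median was −0.22.

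**Figure D1:**
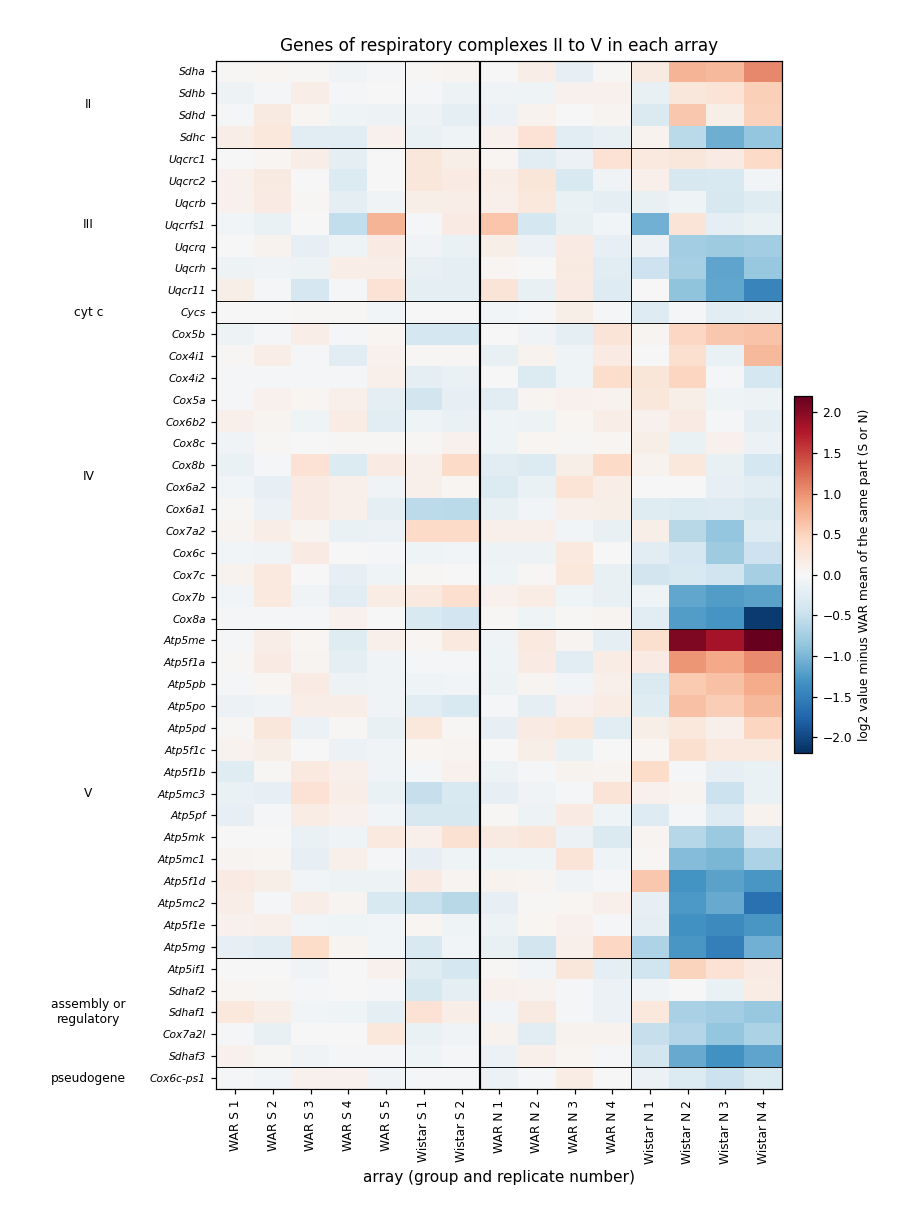
Log2 value of each of the 47 genes (rows, by complex) in each of the 15 arrays (columns), minus the mean of the WAR arrays of the same part, stimulated (S) or naïve (N). The strongest colours stand in the columns of Wistar N replicates 2, 3 and 4, with *Atp5me* above and *Cox8a* below the WAR N mean, whereas Wistar N replicate 1 and the stimulated arrays are paler.

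After sound, 1 of the 47 genes of complexes II to V passed the test between WAR S and Wistar S rats. *Cox6a1*, the subunit VIa isoform of complex IV used outside heart and skeletal muscle, was that gene, and it was higher in WAR S. Its log2 value was 12.49, 12.35, 12.66, 12.58 and 12.28 in WAR S arrays, against 11.89 and 11.88 in Wistar S arrays. Every WAR S array lay above both Wistar S arrays, which were nearly equal. The log2 fold change was 0.59 ± 0.11 (SE; 95% confidence interval 0.36 to 0.81), a 1.5-fold level in WAR S (limma, adjusted p = 0.0233). The call sat close to the threshold. Its limma adjusted p was 0.0523 with only the stimulated arrays fitted, 0.0632 without WAR S replicate 1, 0.0556 without WAR S replicate 4, and 0.249 and 0.477 without Wistar S replicate 1 or 2.

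Of the 47 genes, 1 was called higher and 0 lower in WAR S (limma, adjusted p at most 0.05), against 0.414% of all 14506 genes called in either direction. At an unadjusted p of at most 0.05 there were 7 of 47, and 6.85% of all genes. With arrays weighted by their quality in the fit, 9 of the 47 genes were called, against 9.88% of all genes. The log2 fold changes of the 47 genes ran from −0.42 to 0.59, and 28 were positive and 19 negative. Their median was 0.065, against 0.010 over all genes and 0.0029 over the 1451 genes with the highest mean level. Without overlap between the groups, 11 genes (23.4%) were higher and 1 (2.13%) was lower in WAR S, where 12.4% of all genes were higher and 8.22% lower. Both Wistar S arrays had the same value for 1629 of all 14506 genes and for 2 of the 47. Closeness of these 2 arrays is therefore a weak guide to the spread between samples. By complex, the median log2 fold change was 0.10 for complex II, −0.079 for complex III, 0.026 for complex IV, 0.026 for complex V and 0.11 for the assembly or regulatory factors. The medians near 0 had no fixed sign. With 1 array left out that of complex III ran from −0.13 to 0.057, where it was 0.057 without WAR S replicate 4 and 0.024 without Wistar S replicate 2, and it was 0.10 with the label set (the 2 forms of sample code in the labels) as a block. That of complex IV ran from 0.0056 to 0.052 and that of complex V from −0.0039 (without WAR S replicate 2) to 0.069.

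In complex II, the flavoprotein gene *Sdha* had a log2 fold change of −0.050 ± 0.16 (SE) and the iron-sulfur subunit gene *Sdhb* one of 0.075 ± 0.14. The membrane anchor genes *Sdhc* and *Sdhd* had 0.12 ± 0.24 and 0.17 ± 0.18. All 4 intervals took in 0. In complex III, the core protein genes *Uqcrc1* and *Uqcrc2* had −0.19 ± 0.13 and −0.22 ± 0.17, and the Rieske iron-sulfur gene *Uqcrfs1* had −0.079 ± 0.35 with WAR S values between 8.64 and 9.94. *Uqcrh*, which encodes the acidic hinge protein that helps complex III bind cytochrome c, was the one gene of this complex without overlap. Its log2 value was 11.77, 11.80, 11.76, 12.03 and 12.02 in WAR S, against 11.71 and 11.69 in Wistar S. The lowest WAR S arrays were only just above the Wistar S arrays, and the log2 fold change of 0.18 ± 0.16 (SE) was not called (limma, adjusted p = 1). *Cycs*, the gene for cytochrome c, had 0.0065 ± 0.080 (SE), with an interval of −0.16 to 0.18.

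In complex IV, members lay on both sides of 0. *Cox8a*, the subunit VIII isoform of most tissues, had log2 values of 12.86, 12.84, 12.87, 12.98 and 12.88 in WAR S, against 12.54 and 12.46 in Wistar S. The groups stood clear of each other and each was tight, but Wistar S had only 2 arrays. *Cox8a* had a log2 fold change of 0.38 ± 0.30 (SE). It was not called in the fit over all 15 arrays (limma, adjusted p = 1), in which the 4 groups share 1 estimate of the spread. It was called with only the stimulated arrays fitted (limma, adjusted p = 0.0238) and without Wistar N replicates 2, 3 and 4 (limma, adjusted p = 0.0118). The nuclear subunit gene *Cox5b*, with 0.38 ± 0.15 (SE), and *Cox4i2*, the subunit IV isoform described in lung and in hypoxia, with 0.17 ± 0.19, also had every WAR S array above both Wistar S arrays.

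*Cox7a2*, the subunit VIIa isoform of non-muscle tissue, ran the other way. Its log2 value was 12.53, 12.62, 12.54, 12.33 and 12.35 in WAR S, against 12.89 and 12.89 in Wistar S, the one member without overlap that was lower in WAR S. The log2 fold change was −0.42 ± 0.19 (SE; limma, adjusted p = 0.687), and a second probe set of the gene gave −0.40. *Cox7b*, with −0.28 ± 0.24, and the muscle isoform gene *Cox8b*, with −0.26 ± 0.21, were also negative, and both overlapped.

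In complex V, the genes *Atp5mc1*, *Atp5mc2* and *Atp5mc3* encode the same mature subunit c, which forms the rotating ring in the membrane. *Atp5mc2* had log2 values of 11.60, 11.41, 11.60, 11.51 and 11.12 in WAR S, against 10.96 and 10.83 in Wistar S. *Atp5mc3* had 11.44, 11.39, 11.89, 11.72 and 11.44 in WAR S, against 11.07 and 11.25 in Wistar S. Both sets of WAR S arrays lay above the Wistar S arrays, with log2 fold changes of 0.55 ± 0.27 and 0.42 ± 0.17 (SE), and neither was called (limma, adjusted p = 0.768 and 0.594). *Atp5mc1* overlapped, with 0.14 ± 0.21. Of the peripheral stalk, which holds the catalytic head still, *Atp5pf* (coupling factor 6), with 0.35 ± 0.12, and *Atp5po* (the oligomycin sensitivity protein), with 0.29 ± 0.20, stood clear of overlap. The catalytic head genes *Atp5f1a* (alpha), *Atp5f1b* (beta) and *Atp5f1c* (gamma) had log2 fold changes of 0.022, −0.027 and −0.049. *Atp5mk*, a small membrane subunit gene, was at −0.22 ± 0.20 (SE).

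Among the assembly or regulatory factors, *Sdhaf2*, which helps insert the flavin into *Sdha*, had log2 values of 9.83, 9.82, 9.75, 9.81 and 9.75 in WAR S, against 9.45 and 9.57 in Wistar S. *Atp5if1*, the inhibitor that binds ATP synthase when it runs backwards, had 11.63, 11.65, 11.57, 11.65 and 11.74 in WAR S, against 11.39 and 11.27 in Wistar S. Neither pair of groups overlapped. Their log2 fold changes of 0.28 ± 0.088 and 0.32 ± 0.18 (SE) were not called over all 15 arrays (limma, adjusted p = 0.3 and 0.942), and were called with only the stimulated arrays fitted (limma, adjusted p = 0.044 and 0.048). In that fit 3 of the 47 genes were called, all higher, and 1.89% of all genes, and without Wistar N replicates 2, 3 and 4 the 2 genes called were *Cox6a1* and *Cox8a*, and 1.9% of all genes. *Sdhaf1* had −0.23 ± 0.23, opposite to the median of these factors.

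**Figure D2:**
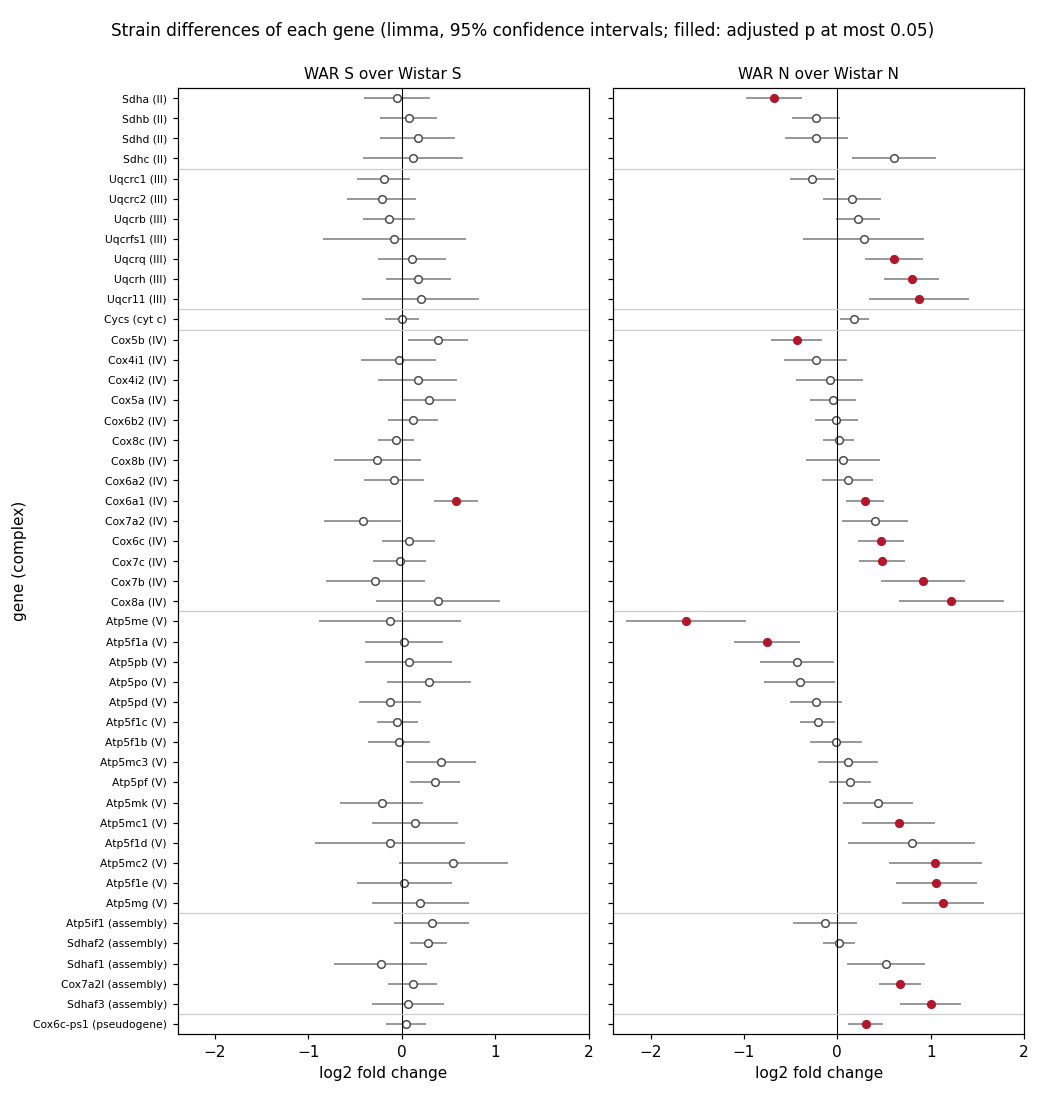
Log2 fold change (points) and 95% confidence interval (lines) of each gene for WAR S over Wistar S (left) and WAR N over Wistar N (right), by complex, from limma over all 15 arrays. Filled points have an adjusted p of at most 0.05, 1 gene after sound and 19 in naïve rats, and the naïve values run from −1.62 (*Atp5me*) to 1.22 (*Cox8a*).

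In naïve rats, many more genes of these complexes passed the test, in both directions, and the number called depended on Wistar N replicates 2, 3 and 4. With all arrays, 15 genes (31.9%) were higher and 4 (8.51%) lower in WAR N (limma, adjusted p at most 0.05). Of all 14506 genes, 11.6% were called higher and 9.38% lower, 20.9% in all. At an unadjusted p of at most 0.05 there were 29 of 47, and 34.5% of all genes. The log2 fold changes of the 47 genes ran from −1.62 to 1.22 with a median of 0.16, against 0.023 over all genes and 0.048 over the same 1451 genes. Without overlap, 10 genes (21.3%) were higher and 3 (6.38%) lower in WAR N, where 7.93% of all genes were higher and 5.51% lower. Without Wistar N replicates 2, 3 and 4, which leaves 1 Wistar N array that is assumed to vary like the other groups, 2 genes were called, against 11.6% of all genes, and the median was 0.015. Of the 19 genes called with all arrays, 18 kept their sign against Wistar N replicate 1 alone, the exception being *Atp5mc1*, and 10 kept a difference of at least 0.2 on the log2 scale. The calls also used replicate 1 and the same WAR N arrays, so a kept sign is partly built in. The share among all genes called was not counted. With only the naïve arrays fitted, 6 were called, against 6.06% of all genes. At the fold threshold of the methods (at least 2, with an unadjusted p of at most 0.05), 5 genes passed in naïve rats, against 1.76% of all genes, and 0 after sound, against 0.269%. Without Wistar N replicate 1, 30 of the 47 genes were called, against 41.1% of all genes.

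For the median gene, the split within Wistar N was wider than the difference between WAR N and the Wistar N array nearest to it. Replicates 2, 3 and 4 all lay to one side of the other 5 naïve arrays for 28 of the 47 genes (59.6%), 19 lower and 9 higher, and for 32.7% of all genes. The same held for 26 of 37 genes of complex I and 37 of 76 cytosolic ribosomal protein genes. Of the 1451 genes with the highest mean level, it held for 660. The median absolute difference between the mean of replicates 2, 3 and 4 and Wistar N replicate 1 was 0.52 over the 47 genes and 0.26 over all genes. It was 0.61 over complex I, 0.51 over the ribosomal protein genes and 0.46 over those 1451 genes. The median absolute difference between the WAR N mean and Wistar N replicate 1 was 0.19 over the 47 genes and 0.17 over all genes. The arrays that stand apart are from both label sets. Why they stand apart was not tested.

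**Figure D3:**
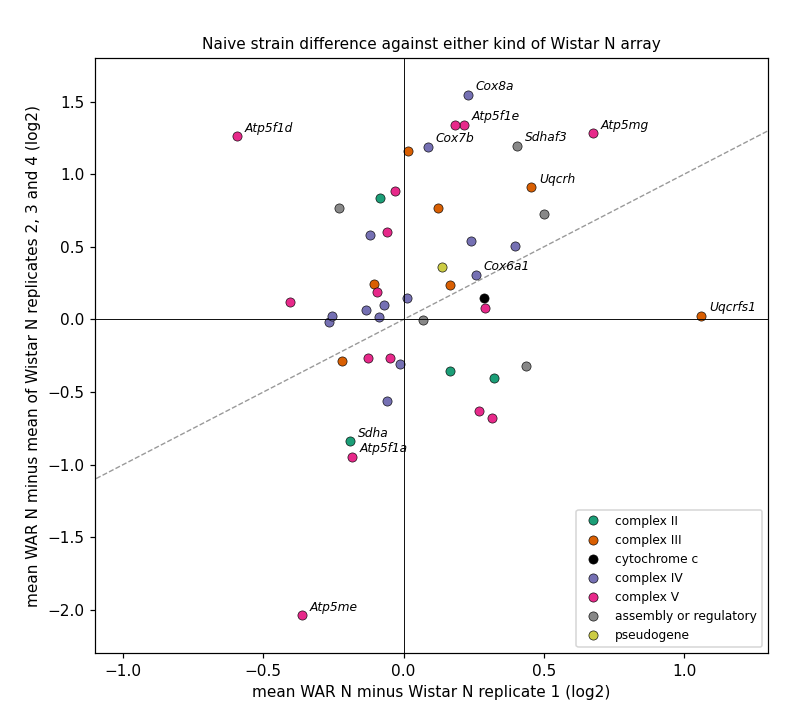
Each point is a gene, coloured by complex, with the WAR N mean minus Wistar N replicate 1 on the x axis and the WAR N mean minus the mean of Wistar N replicates 2, 3 and 4 on the y axis (both log2), and the dashed line marks equal values. The vertical range exceeds the horizontal one, and *Atp5f1d* has opposite signs on the axes, −0.60 and 1.26.

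Complex II had no gene called higher and 1 called lower in WAR N. *Sdha* had log2 values of 10.46, 10.60, 10.28 and 10.49 in WAR N, against 10.65, 11.21, 11.17 and 11.52 in Wistar N. Wistar N replicate 1 was just above the WAR N arrays and the other 3 were well above, with a log2 fold change of −0.68 ± 0.13 (SE; limma, adjusted p = 0.00415). Against Wistar N replicate 1 alone it was −0.19 (limma, adjusted p = 0.275). *Sdhb* and *Sdhd* had −0.23 ± 0.12 and −0.22 ± 0.15, and *Sdhc* ran the other way with 0.61 ± 0.21 (SE), none of them called. Against Wistar N replicate 1 alone all 3 turned their sign, to 0.17 for *Sdhb*, 0.32 for *Sdhd* and −0.083 for *Sdhc*, and the median of complex II was 0.041 in place of −0.23. All 4 genes had Wistar N replicates 2, 3 and 4 to one side of the other naïve arrays, below them for *Sdhc* and above them for the rest.

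In complex III, 3 genes, all for small subunits, were called higher in WAR N and 0 lower. *Uqcrh* had log2 values of 11.82, 11.79, 11.99 and 11.54 in WAR N, against 11.33, 11.05, 10.63 and 10.95 in Wistar N. The groups did not overlap, and Wistar N replicate 1 was nearest to WAR N. The log2 fold change was 0.80 ± 0.13 (SE; limma, adjusted p = 0.00167), and 0.45 against Wistar N replicate 1 alone (limma, adjusted p = 0.0811). *Uqcrq* and *Uqcr11*, both small subunits, were called with 0.60 ± 0.14 and 0.87 ± 0.24, and against Wistar N replicate 1 alone they had 0.12 and 0.015. The core protein gene *Uqcrc1*, with −0.27 ± 0.11, was opposite to the median of the complex and not called. *Uqcrfs1* had 9.61, 8.61, 8.82 and 8.94 in WAR N, against 7.93, 9.28, 8.78 and 8.85 in Wistar N, where Wistar N replicate 1 was the lowest. *Cycs* had 0.18 ± 0.067 (SE; limma, adjusted p = 0.0681).

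Complex IV had 5 genes called higher and 1 lower in WAR N. *Cox8a* showed the largest rise of the 47 genes. Its log2 value was 12.84, 12.72, 12.84 and 12.88 in WAR N, against 12.59, 11.59, 11.52 and 10.71 in Wistar N. All Wistar N arrays lay below the WAR N arrays, replicate 1 only slightly and replicate 4 the most. The log2 fold change was 1.22 ± 0.26 (SE; limma, adjusted p = 0.00542), a 2.33-fold level in WAR N, and 0.23 against Wistar N replicate 1 alone (limma, adjusted p = 0.105). *Cox7b* rose by 0.91 ± 0.21, *Cox7c* by 0.48 ± 0.11 and *Cox6c* by 0.46 ± 0.11 (log2 fold change, SE). Against Wistar N replicate 1 alone the values were 0.087 for *Cox7b*, 0.40 for *Cox7c* and 0.24 for *Cox6c*, none of them called (limma, adjusted p = 0.791, 0.124 and 0.266).

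*Cox6a1*, the gene called after sound, was also called higher in WAR N, and its Wistar N arrays lay close together. Its log2 value was 12.26, 12.37, 12.54 and 12.56 in WAR N, against 12.17, 12.14, 12.16 and 12.08 in Wistar N. All 4 Wistar N arrays lay below the lowest WAR N array, and replicate 1 lay close to the others. The log2 fold change was 0.30 ± 0.089 (SE; limma, adjusted p = 0.0306), and 0.26 against Wistar N replicate 1 alone (limma, adjusted p = 0.292). Leaving out any of WAR N replicates 3 and 4 or Wistar N replicates 2, 3 and 4 ended the call, with the limma adjusted p between 0.0610 and 0.0864.

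The gene of complex IV called lower was *Cox5b*, with log2 values of 9.08, 9.01, 8.88 and 9.36 in WAR N, against 9.14, 9.55, 9.68 and 9.71 in Wistar N. Wistar N replicate 1 lay inside the WAR N range and the other 3 above it, and the log2 fold change was −0.44 ± 0.12 (SE; limma, adjusted p = 0.0228). Against replicate 1 alone it was −0.058, and after sound its sign was positive. *Cox7a2*, negative after sound, had 0.41 ± 0.16 (SE; limma, adjusted p = 0.0861) in naïve rats with all arrays and −0.12 against Wistar N replicate 1 alone. The nuclear subunit genes *Cox4i1* and *Cox5a* had −0.23 ± 0.15 and −0.046 ± 0.11.

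The isoforms used mainly in muscle, lung or testis gave no call in either part. The heart and muscle isoform gene *Cox6a2* averaged a log2 value of 7.64 in WAR S and 7.72 in Wistar S, and of 7.30 in WAR N and 7.19 in Wistar N. *Cox8b*, also a muscle isoform gene, averaged 6.28 in WAR S and 6.54 in Wistar S, and 6.05 in WAR N and 5.99 in Wistar N. The naïve log2 fold changes were 0.11 ± 0.12 for *Cox6a2*, 0.059 ± 0.18 for *Cox8b*, −0.081 ± 0.16 for *Cox4i2* and −0.0095 ± 0.10 for the testis isoform gene *Cox6b2* (SE). A list of 4 skeletal muscle markers had array means between 6.59 and 6.69 for WAR S, between 6.57 and 6.61 for Wistar S, between 6.47 and 6.82 for WAR N, and between 6.48 and 6.76 for Wistar N. Whether these probe sets measured signal above background could not be read from the processed values.

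Complex V held the widest spread, with 4 genes called higher and 2 lower in WAR N. *Atp5f1e*, the small epsilon subunit of the catalytic head, had log2 values of 11.80, 11.96, 12.00 and 11.86 in WAR N, against 11.69, 10.57, 10.50 and 10.62 in Wistar N. *Atp5mg*, subunit g of the membrane part, had 9.41, 9.17, 9.69 and 10.03 in WAR N, against 8.90, 8.30, 8.07 and 8.51 in Wistar N. Both were lower in every Wistar N array, with log2 fold changes of 1.06 ± 0.20 and 1.13 ± 0.20 (SE; limma, adjusted p = 0.00294 and 0.00248). Against Wistar N replicate 1 alone the values were 0.22 and 0.68 (limma, adjusted p = 0.234 and 0.155).

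*Atp5me*, subunit e of the same membrane part, ran the other way and had the largest fall of the 47 genes. Its log2 value was 7.82, 8.11, 7.97 and 7.71 in WAR N, against 8.26, 9.96, 9.73 and 10.13 in Wistar N. Wistar N replicate 1 lay just above the WAR N arrays and the other 3 far above. The log2 fold change was −1.62 ± 0.30 (SE; limma, adjusted p = 0.00276), and −0.36 against Wistar N replicate 1 alone (limma, adjusted p = 0.188). In proteins, subunits e and g bind each other and help ATP synthase form dimers. *Atp5mk*, also of the membrane part, had 0.44 ± 0.17 and was not called.

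The catalytic head split by subunit. *Atp5f1a* (alpha) was called lower, with log2 values of 11.03, 11.29, 10.87 and 11.27 in WAR N, against 11.30, 12.08, 11.95 and 12.15 in Wistar N, and a log2 fold change of −0.76 ± 0.16 (SE; limma, adjusted p = 0.00542). Replicate 1 was again the Wistar N array nearest to WAR N, with a difference of −0.18 against it alone. *Atp5f1b* (beta) and *Atp5f1c* (gamma) had −0.013 ± 0.13 and −0.21 ± 0.082 and were not called. *Atp5f1d* (delta) had 12.39, 12.38, 12.24 and 12.28 in WAR N, against 12.92, 11.01, 11.14 and 11.04 in Wistar N. Its Wistar N arrays lay on both sides of WAR N, and the log2 fold change of 0.80 ± 0.31 (SE; limma, adjusted p = 0.0852) turned into −0.60 against replicate 1 alone (limma, adjusted p = 0.0115).

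Of the subunit c genes, *Atp5mc2* and *Atp5mc1* were called higher, with 1.05 ± 0.23 and 0.66 ± 0.18, and *Atp5mc3* had 0.12 ± 0.14 (log2 fold change, SE). Against Wistar N replicate 1 alone the values were 0.18 for *Atp5mc2*, −0.029 for *Atp5mc1* and −0.096 for *Atp5mc3*, none of them called. The probe sets of *Atp5mc3* disagreed. The second one, with a mean log2 value of 9.63, had 10.78, 10.56 and 11.58 in Wistar N replicates 2, 3 and 4 and 9.57 in replicate 1, against a WAR N mean of 9.27, and a log2 fold change of −1.35. Of the 8 genes with more than 1 probe set, this was the one pair with opposite signs in naïve rats. The peripheral stalk genes *Atp5pb* and *Atp5po* had −0.43 ± 0.18 and −0.40 ± 0.17, and both turned positive against Wistar N replicate 1 alone, at 0.31 and 0.27. Several of these genes have processed pseudogenes or near-identical relatives, and probe sets shared with them are uncertain.

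Among the assembly or regulatory factors, *Sdhaf3*, a factor needed to mature the iron-sulfur subunit of complex II, had log2 values of 8.64, 8.87, 8.81 and 8.74 in WAR N, against 8.36, 7.66, 7.43 and 7.60 in Wistar N. All Wistar N arrays were below WAR N, and the log2 fold change was 1.00 ± 0.15 (SE; limma, adjusted p = 0.000974). Against Wistar N replicate 1 alone it was 0.41 and still called (limma, adjusted p = 0.0204), the one gene called both ways with the same sign. *Atp5f1d*, the other gene called against replicate 1 alone, was not called with all arrays. *Cox7a2l*, which helps join complexes III and IV into a supercomplex, had 11.48, 11.17, 11.49 and 11.49 in WAR N, against 10.91, 10.77, 10.56 and 10.71 in Wistar N. Its groups did not overlap, with 0.67 ± 0.10 (SE; limma, adjusted p = 0.00107) over all arrays and 0.50 against replicate 1 alone (limma, adjusted p = 0.0516). *Atp5if1* had −0.13 ± 0.15, opposite to the median of these factors, and 0.44 against replicate 1 alone. *Sdhaf1* had 0.52 ± 0.19, and −0.23 against replicate 1 alone, so that it was then the one opposite to their median of 0.41. Neither was called, and the pseudogene *Cox6c-ps1* was called with 0.30 ± 0.081 (SE; limma, adjusted p = 0.0179).

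*Cox6a1*, *Cox8a* and *Uqcrh* were higher in WAR without overlap in both parts (6.38% of the 47 genes), where 2.53% of all genes did so. None of the 47 genes was lower without overlap in both parts, where 1.37% of all genes were. The log2 fold changes were positive in both parts for 18 genes, negative in both for 7, positive after sound only for 10 and negative after sound only for 12. Across the 47 genes, which share the arrays and are not independent, the correlation between the parts was 0.13, and 0.30 when the naïve difference was taken against Wistar N replicate 1 alone.

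**Figure D4:**
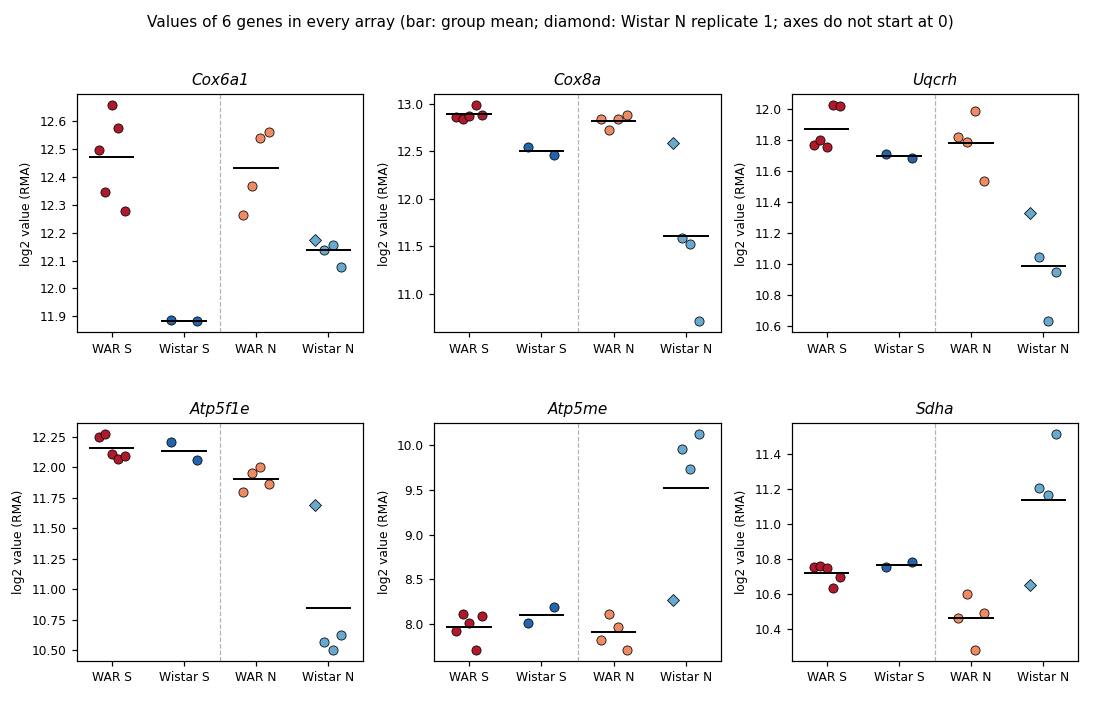
Log2 value of 6 genes in every array, with the group mean as a bar and Wistar N replicate 1 as a diamond. *Cox6a1*, *Cox8a* and *Uqcrh* have every WAR array above every Wistar array of the same part, whereas *Atp5f1e*, *Atp5me* and *Sdha* overlap between the strains after sound. In all 6 genes, Wistar N replicates 2, 3 and 4 lie to one side of all other naïve arrays.

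The test of the difference between the strain effects after sound and in naïve rats called 0 of the 47 genes (limma, adjusted p at most 0.05), against 0.103% of all genes, and 19 had an unadjusted p of at most 0.05, against 15% of all genes. At the fold threshold of the methods 3 passed, against 1.3%. Without Wistar N replicate 1 it called 27, against 20.4% of all genes, and with array weights 28, against 23.1%. Without Wistar N replicates 2, 3 and 4 it called 0, against 3.66%. The largest differences in size were those of *Atp5me*, at 1.49 ± 0.46 (SE; limma, adjusted p = 0.168), and *Cox7b*, at −1.20 ± 0.32 (SE; limma, adjusted p = 0.124). In this test, the part after sound holds strain and any seizure together.

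The 47 genes, called or not, were also looked at in the sequence before their start sites. Of the 47 genes, 40 matched RefSeq promoter entries of rat assembly GRCr8, and the 250 bases before the start were searched on both strands for 2 motifs of nuclear factors known to act on respiratory genes. The motif of nuclear respiratory factor 1 (GCGC and TGCGC with any 1 base between them) was found in 6 of 40 (15.0%), against 3.75% of 33469 RefSeq promoter entries. These entries were not limited to the 14506 genes measured on the arrays. The motif of GABP, also named nuclear respiratory factor 2 (CCGGAAG), was found in 16 of 40 (40.0%), against 7.27%. Either motif was found in 20 of 40 (50.0%), against 10.4%. CCAAT was found in 15 of 40 (37.5%), against 34.0%. Motifs were searched apart, so they may overlap each other. The windows of *Cox8a* and *Uqcrh* are shown as genes with every WAR array above every Wistar array in both parts, although neither was called after sound in the fit over all 15 arrays, that of *Atp5me* as the gene with the largest naïve fall, and that of *Atp5f1e* as a gene with a naïve rise, and capitals mark matches to the first pair of motifs on either strand.
Cox8a (chr1:213833624-213833873, minus strand): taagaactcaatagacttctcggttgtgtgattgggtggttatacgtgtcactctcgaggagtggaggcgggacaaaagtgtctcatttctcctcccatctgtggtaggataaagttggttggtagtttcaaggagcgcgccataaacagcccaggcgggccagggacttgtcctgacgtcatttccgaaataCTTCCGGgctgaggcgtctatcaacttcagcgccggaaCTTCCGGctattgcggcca
Uqcrh (chr5:134790883-134791132, minus strand): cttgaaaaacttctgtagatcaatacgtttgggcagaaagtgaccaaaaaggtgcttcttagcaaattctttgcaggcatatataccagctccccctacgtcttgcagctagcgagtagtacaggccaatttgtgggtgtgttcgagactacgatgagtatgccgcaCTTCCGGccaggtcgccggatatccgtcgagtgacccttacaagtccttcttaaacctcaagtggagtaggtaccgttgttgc
Atp5me (chr14:1464610-1464859, plus strand): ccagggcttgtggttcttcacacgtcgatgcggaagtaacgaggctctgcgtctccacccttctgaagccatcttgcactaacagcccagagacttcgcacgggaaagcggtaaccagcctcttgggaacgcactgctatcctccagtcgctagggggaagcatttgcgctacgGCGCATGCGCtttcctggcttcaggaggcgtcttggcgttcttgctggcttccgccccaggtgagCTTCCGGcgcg
Atp5f1e (chr3:183680173-183680422, minus strand): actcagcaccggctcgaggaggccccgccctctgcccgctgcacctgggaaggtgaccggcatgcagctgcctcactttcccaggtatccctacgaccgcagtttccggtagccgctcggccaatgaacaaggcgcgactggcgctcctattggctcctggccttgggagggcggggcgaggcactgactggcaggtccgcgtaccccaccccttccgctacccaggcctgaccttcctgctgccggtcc
*Cox8a* held the GABP motif at 57 to 51 and at 19 to 13 bases before the start, and *Uqcrh* at 83 to 77 bases. *Atp5me* held the motif of nuclear respiratory factor 1 at 76 to 67 bases and that of GABP at 11 to 5 bases. *Atp5f1e* held neither. CCAAT was found in *Atp5f1e* at 130 to 126 and 101 to 97 bases, in *Cox8a* at 220 to 216 and in *Uqcrh* at 125 to 121. Genes with the GABP motif were thus found among those higher (*Cox8a*, *Uqcrh*) and those lower (*Atp5me*, *Atp5f1a*) in WAR N. A match of letters is a description and does not show that a factor binds there.

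Related genes are given as counts, without a test over a list. For comparison with these lists and the cell type markers below, 0.214% of all genes were called higher and 0.2% lower after sound. In WAR N, 11.6% of all genes were called higher and 9.38% lower. Of 37 genes of complex I, which feeds electrons from NADH into the chain, 0 were called after sound, with a median log2 fold change of 0.13, and 16 were called higher and 5 lower in WAR N, with a median of 0.32. Of 21 measured assembly factors outside the rule, 0 were called after sound, and 4 were called higher and 4 lower in WAR N. Of 11 measured regulators of mitochondrial biogenesis, 0 were called after sound, and 3 were called higher and 2 lower in WAR N. Of 15 genes for mitochondrial carriers and import, 0 were called after sound, and 2 were called higher and 1 lower in WAR N. Of 76 cytosolic ribosomal protein genes, which also have short and abundant transcripts, 0 were called after sound, and 21 were called higher and 9 lower in WAR N, with a median of 0.066. Against Wistar N replicate 1 alone, the naïve median was 0.15 for complex I and 0.28 for the ribosomal protein genes. It was 0.065 for the assembly factors, 0.16 for the regulators, −0.0053 for carriers and import and −0.0016 over all genes. With all arrays, the assembly factors, the regulators, and carriers and import had medians of −0.15, −0.15 and 0.013.

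Some markers of cell types also differed between the strains, and others did not. After sound, 0 of 7 oligodendrocyte, 0 of 4 choroid plexus and ependyma and 0 of 2 parvalbumin neuron markers were called. Their median log2 fold changes were −0.042, −0.072 and −0.077. All 9 endothelial markers had a positive log2 fold change after sound, with a median of 0.52 and 2 called higher, and the list mean was 7.59 to 8.00 in WAR S, against 7.06 to 7.12 in Wistar S. All 8 astrocyte markers had a negative one, with a median of −0.26 and 0 called, and the list mean was 11.20 to 11.46 in WAR S, against 11.67 to 11.70 in Wistar S. The 10 neuronal markers had a median of 0.011 and 0 called, and the list mean was 11.13 to 11.34 in WAR S, against 11.13 to 11.25 in Wistar S. Of 8 microglial markers, 1 was called higher, with a median of 0.12, and the list mean was 8.47 to 8.81 in WAR S, against 8.40 to 8.45 in Wistar S. All 3 red blood cell markers were negative, 1 of them called, and the list mean was 7.58 to 7.70 in WAR S, against 8.02 to 8.42 in Wistar S.

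In naïve rats, 4 of 9 endothelial markers were called higher in WAR N, and all 9 were positive, with a median of 0.68. The endothelial list mean was 7.50 to 7.88 in WAR N, against 6.90 to 7.64 in Wistar N, and Wistar N replicates 2, 3 and 4 lay below the other naïve arrays for 8 of the 9 markers. Of 8 astrocyte markers 6 were negative and 3 called lower, with a median of −0.36, and the list mean was 10.99 to 11.25 in WAR N, against 11.32 to 11.58 in Wistar N. The neuronal markers went both ways, with 6 positive and 4 negative, a median of 0.061, and all 4 negative ones called. Of the microglial markers 3 were called higher, with a median of 0.23 and a list mean of 8.47 to 8.51 in WAR N, against 8.11 to 8.29 in Wistar N. All 3 red blood cell markers were again negative with 1 called, and the list mean was 7.38 to 7.78 in WAR N, against 7.75 to 8.26 in Wistar N. Of 7 oligodendrocyte markers 1 was called higher and 1 lower, with a median of 0.15. Of 4 choroid plexus and ependyma markers 0 were called, with a median of −0.016. Of 2 parvalbumin neuron markers 1 was called lower, with a median of −0.52. Against Wistar N replicate 1 alone, the naïve median was 0.15 for the endothelial, −0.30 for the astrocyte and −0.23 for the neuronal markers. It was 0.32 for the microglial, −0.095 for the red blood cell and −0.21 for the oligodendrocyte markers. Over the choroid plexus and ependyma markers it was 0.022, and over the parvalbumin neuron markers −0.49. The part of cell composition in the differences of the 47 genes was not tested.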

How the data were processed

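The IC of 15 samples was measured on Affymetrix rat gene arrays. The deposited values are log2 signals that the authors obtained with RMA (background correction, quantile normalization and a summary per probe set), with the RMA software version not given in the sources used here. Quantile normalization fixes the overall distribution of an array, so changes are relative to the other genes. Raw signals were not used here, and precision rests on the number of arrays. Groups followed the labels, and 0 value columns were unused. Of 29214 probe sets, 15310 carried 1 gene symbol, 323 several and 13581 none, and the brightest was kept for each of 14506 genes.

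The comparisons were fitted with limma 3.58.1 (R 4.3.3), with 4 group means in 1 linear model over the 15 arrays and empirical Bayes moderation. P-values were adjusted by Benjamini-Hochberg over 14506 genes, called at 0.05, with 95% confidence intervals. The SAM test of the methods was not run, and its fold threshold of 2 with an unadjusted p of at most 0.05 was an alternative. The fit was tested on simulated data in which arrays were independent and none stood apart. That test therefore does not cover the split within Wistar N. The genes and lists were chosen with earlier results of these data known. Genes named are those with the smallest adjusted p, the largest changes in each direction, those opposite to their complex, isoform pairs and a short list of main subunits. The others named (*Atp5f1d*, *Atp5pb*, *Atp5pf*, *Atp5po*, *Cox6c*, *Cox6c-ps1*, *Cox7c*, *Cox8c*, *Sdhaf2*, *Sdhd*, *Uqcrc2* and *Uqcrq*) were chosen after their values were seen. All 47 genes were matched by gene ID to RefSeq genes of rat assembly GRCr8, and 40 had a promoter sequence there. Other alternatives were fits of the compared groups alone, a block for the label set or for the replicate number, each label set by itself, dim genes left out, every probe set tested, the mean of a gene's probe sets, trend and robust moderation, array weights, cyclic loess, and each array left out.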

Additional observations from a re-analysis of the deposited data

Results flagged for a closer look

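In groups of 4 or 5 arrays, 12 of 141 groups of values (47 genes in each of WAR S, WAR N and Wistar N) held 1 array far from the others by Dixon's test, where chance flags about 1 in 20. Of these, 5 were the same array, Wistar N replicate 1, which lay above the other Wistar N arrays with log2 values of 12.92 for *Atp5f1d*, 11.69 for *Atp5f1e*, 11.52 for *Cox7b*, 8.62 for *Sdhaf1* and 10.51 for *Uqcrq*. These are genes for which replicates 2, 3 and 4 together lay below the WAR N arrays. In WAR N, replicate 3 was the highest for *Atp5mc1* (10.70), replicate 2 the lowest for *Cox7a2l* (11.17), and replicate 1 the lowest for *Cox5a* (10.87) and *Cox8c* (5.43). In WAR S, replicate 5 was the highest for *Cox4i2* (6.38), replicate 4 the highest for *Cox8a* (12.98) and replicate 1 the lowest for *Cox8c* (5.35). Among the other WAR S arrays, *Cox4i2* had the same value in all 4, one of 9 genes with identical values between stimulated arrays.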

How the results depend on the processing

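*Cox6a1* after sound was positive under all 26 alternatives, and its call did not hold under 8 of them. The number of called genes depended on which arrays were fitted. After sound, 9 genes (against 9.88% of all genes) were called with array weights, 3 with only the compared groups, 2 without Wistar N replicates 2, 3 and 4 (an alternative chosen after seeing the data), and 0 with trend and robust moderation, with only label set 1 or by the fold threshold of the methods. In naïve rats, 6 were called with only the compared groups, 5 by the fold threshold, 2 without Wistar N replicates 2, 3 and 4, and 0 with only label set 1, which leaves fewer arrays. For the difference between the strain effects, 28 (against 23.1% of all genes) were called with array weights and 3 (against 1.3%) by the fold threshold. With 1 array left out, 0 to 1 genes were called after sound, 14 to 30 in naïve rats and 0 to 27 for the difference, where 30 and 27 came without Wistar N replicate 1 and 14 to 20 naïve calls were found otherwise. The median log2 fold change was 0.026 after sound with structural subunits only and 0.030 to 0.071 with 1 array left out. In naïve rats it was 0.015 without Wistar N replicates 2, 3 and 4 and 0.10 to 0.19 with 1 array left out. The count of genes without overlap grows by construction with fewer arrays, and no share of all genes stands beside it in this section. It was 12 to 21 after sound and 13 to 29 in naïve rats with 1 array left out, 19 and 21 with only label set 1, 32 in naïve rats with only label set 2, and 27 without Wistar N replicates 2, 3 and 4.

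The replicate numbers did not pair the samples, since same-numbered arrays had correlations of their deviations between −0.31 and 0.060. With the replicate number as a block, 0 genes were called after sound, and the log2 fold change after sound was 0.017 for *Atp5f1c*, −0.038 for *Sdhb*, 0.11 for *Atp5f1d*, −0.021 for *Atp5pb* and 0.067 for *Cox7c*.

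Apart from the mean of probe sets and the fit without Wistar N replicates 2, 3 and 4, values that turned sign were at most 0.17 in size. Without those replicates, genes far from 0 with all arrays turned as well. Among them were *Atp5f1d* (0.80 with all arrays), *Atp5mc1* (0.66), *Sdhc* (0.61) and *Sdhaf1* (0.52). In naïve rats 2 values turned and passed the test, *Atp5f1d* at −0.60 without Wistar N replicates 2, 3 and 4, and *Atp5mc3* at −0.62 with the mean of its probe sets, whose second probe set runs the other way. Without Wistar N replicates 2, 3 and 4 the naïve log2 fold change was 0.44 for *Atp5if1*, −0.029 for *Atp5mc1*, −0.096 for *Atp5mc3*, −0.059 for *Atp5mk*, −0.12 for *Cox7a2*, −0.070 for *Cox8b*, −0.23 for *Sdhaf1*, 0.17 for *Sdhb*, −0.083 for *Sdhc*, 0.32 for *Sdhd*, 0.31 for *Atp5pb*, 0.27 for *Atp5po*, −0.13 for *Cox8c* and −0.10 for *Uqcrc2*. With only label set 1 it was 0.11 for *Atp5if1*, −0.097 for *Atp5mc3*, −0.092 for *Cox6a2*, −0.033 for *Cox8c* and −0.12 for *Cox8b*, and after sound 0.061 for *Cox4i1*, −0.017 for *Cox6c-ps1*, 0.045 for *Cox7c*, −0.011 for *Cycs* and 0.10 for *Uqcrfs1*, the same as with the label set as a block. With only label set 2 the naïve value was 0.17 for *Atp5f1b*, 0.071 for *Cox5a*, 0.018 for *Cox6b2*, −0.012 for *Sdhaf2* and −0.15 for *Uqcrfs1*. Array weights gave 0.094 for *Atp5f1b*, 0.0047 for *Cox6b2* and −0.0027 for *Cox8c* in naïve rats and 0.0033 for *Cox4i1* and 0.016 for *Cox7c* after sound, and cyclic loess gave −0.019 for *Cox8b* and −0.050 for *Cox8c* in naïve rats. With 1 array left out, values after sound ran from −0.024 to 0.069 for *Atp5f1a*, −0.090 to 0.041 for *Atp5f1b*, −0.048 to 0.10 for *Atp5f1e*, −0.068 to 0.032 for *Cox4i1*, −0.076 to 0.025 for *Cox7c*, −0.0027 to 0.023 for *Cycs* and −0.27 to 0.057 for *Uqcrfs1*. Naïve values ran from −0.078 to 0.12 for *Atp5f1b*, −0.0017 to 0.19 for *Atp5mc3*, −0.23 to 0.052 for *Cox4i2*, −0.099 to 0.038 for *Cox5a*, −0.080 to 0.048 for *Cox6b2*, −0.085 to 0.16 for *Cox8b*, −0.029 to 0.062 for *Cox8c* and −0.026 to 0.074 for *Sdhaf2*. Apart from *Atp5mc3*, the cause of these changes was not tested.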
